A study of Homo sapiens with 2 samples.

Results

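The NR4A, EGR and IER genes are immediate early genes, which cells transcribe within minutes of a stimulus without making new protein. NR4A1, NR4A2 and NR4A3 encode orphan nuclear receptors that bind DNA, EGR1 to EGR4 encode zinc finger transcription factors, and IER2, IER3 and IER5 encode small response proteins, of which IER2 and IER5 are related. CREB and ATF1 bind the cAMP response element (CRE) and are switched on by phosphorylation, whereas serum response factor (SRF) acts through the CArG box with partners that respond to MAP kinase signalling. CREs and CArG boxes are both known from promoters of this class. The 10 genes were chosen by name, and their rows were taken by gene name from a table of ATF1 binding peaks in HCT116 cells. Of the 10, 9 had a row, out of 15064 peaks in all, and IER3 had none. For scale, 12149 of the peaks were named for protein-coding genes, of which the RefSeq annotation lists 19974.

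The study introduced ATF1 with a 3xFlag tag into HCT116, a human colon carcinoma line. It made 1 ChIP library with an antibody to the tag and 1 library of input DNA. The analysis rests on the peaks of the ChIP library, and the input was not analysed here. The antibody reads the tagged protein and not the cell's own ATF1, and the amount of tagged protein in the cells is not stated in the labels. Cells were grown in 10% fetal bovine serum, and no stimulus is named in the labels. Expression was not measured, so neither the activity of these genes nor the identity of the cells could be checked.

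The table gives for each peak a tag count, a length, a summit, a fold enrichment over a background that is not specified, and a score whose basis is not stated. It holds 15064 distinct gene names, so each name has 1 peak and each peak 1 name. A second peak of a gene could thus not appear under the same name, and whether further peaks were left out is not stated. Library depth is unknown, and the lowest fold enrichment listed is 3. With 1 library there was no replicate and no test, and the values describe that library. Intervals are exact 95% intervals, Poisson for tags and Clopper-Pearson for shares, and cover counting error only.

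Promoter sequences were available from RefSeq (GRCh38.p14, the assembly of the hg38 coordinates) for 7 of the 10 genes, as windows of 300 bp around 10 annotated start sites. These windows held 250 bp before the start site and 50 bp from it onward. They were searched on both strands for the full CRE TGACGTCA, for its core, and for the CArG box. The core was TGACG on either strand, so that one on the opposite strand reads CGTCA, and a full CRE contains it. The stretches shown are those in which a CRE core was found, because they show where its letters fall beside the ATF1 summit. They read 5′ to 3′ in the direction of the gene, with CRE cores and CArG boxes in capitals. The NR4A3 stretch is chr9:99821635-99821854 on the forward strand, the EGR1 stretch chr5:138465229-138465478 forward, and the EGR2 stretch chr10:62816367-62816616 reverse. The EGR4 stretch is chr2:73293702-73293798 reverse, and the IER2 stretch chr19:13150259-13150288 forward. The NR4A3 and EGR4 stretches stop where the gene begins in the peak table. They therefore leave out the NR4A3 core 25 bases before the start and the EGR4 core 109 bases before it. The IER2 stretch is 30 bp, because most of that window, the core included, lies in the neighbouring gene STX10.
NR4A3: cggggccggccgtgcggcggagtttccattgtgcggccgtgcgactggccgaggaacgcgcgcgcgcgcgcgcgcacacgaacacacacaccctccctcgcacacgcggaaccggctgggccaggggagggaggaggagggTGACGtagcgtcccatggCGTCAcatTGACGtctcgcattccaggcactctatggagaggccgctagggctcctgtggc
EGR1: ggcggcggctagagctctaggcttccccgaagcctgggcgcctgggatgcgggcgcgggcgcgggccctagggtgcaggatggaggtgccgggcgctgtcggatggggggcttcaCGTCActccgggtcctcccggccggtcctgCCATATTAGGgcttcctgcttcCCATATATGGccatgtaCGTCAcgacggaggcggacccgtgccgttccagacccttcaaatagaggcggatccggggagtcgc
EGR2: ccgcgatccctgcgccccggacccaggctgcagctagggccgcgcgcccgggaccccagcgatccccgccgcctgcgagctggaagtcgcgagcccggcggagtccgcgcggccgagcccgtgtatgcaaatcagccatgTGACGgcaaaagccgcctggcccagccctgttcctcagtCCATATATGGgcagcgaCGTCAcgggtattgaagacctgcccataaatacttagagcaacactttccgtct
EGR4: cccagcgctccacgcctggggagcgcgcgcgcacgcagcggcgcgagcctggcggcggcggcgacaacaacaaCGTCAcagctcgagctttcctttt
IER2: cacccccgccccCGTCAcgccaccatcgag

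A CRE core was found for 5 of the 7 genes with a window (NR4A3, EGR1, EGR2, EGR4 and IER2; interval 29.0 to 96.3%), against 28.4% of the 27305 genes with a window. The other two, NR4A1 and IER5, had none of these letters in their windows. The full CRE was found in 0 of the 7 genes (interval 0 to 41.0%), against 2.25% of all genes, a share within that interval. Counted by window, a CRE core was in 36.0% of the 12523 windows whose start site lay inside a listed ATF1 peak and in 18.2% of the 22593 whose start site did not. The full CRE was in 3.39% and 0.996% of them. Among the 10 windows of the 7 genes, 9 had the start site inside a listed peak. A CRE core was in 5 of these 10 (50%), for which the 36.0% is the closer comparison. The match is not exact, because an NR4A1 start lay outside any listed peak, and NR4A1 and EGR2 have several windows each. The 36.0% lies within the interval of 29.0 to 96.3% for the 7 genes.

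NR4A3 had the most cores, 4, beginning 109, 91, 83 and 25 bases before the start site. Windows with at least 4 cores were 0.313% of all 35116, and 0.623% of the 12523 whose start site, like that of NR4A3, lay inside a listed peak. EGR1 had cores beginning 135 and 66 bases before its start, the internal EGR2 start had them at 110 and 54, and EGR4 at 177 and 109. The 1 core of IER2 began 140 bases before its start.

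CArG boxes were found for EGR1 (at 105 and 83 bases before the start) and EGR2 (at 71), 2 of the 7 genes, against 1.6% of all genes with a window. In both, the CArG box nearest the start had the letters CCATATATGG, and a CGTCA core followed it after 7 bases. The arrangement CCATATATGGNNNNNNNCGTCA, searched in the direction of the gene, occurred in 2 of 35116 windows, those of EGR1 and EGR2. The CArG form on its own occurred in 9. This arrangement was singled out after the 2 sequences had been seen, so its rarity elsewhere is a description.

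**Figure D1:**
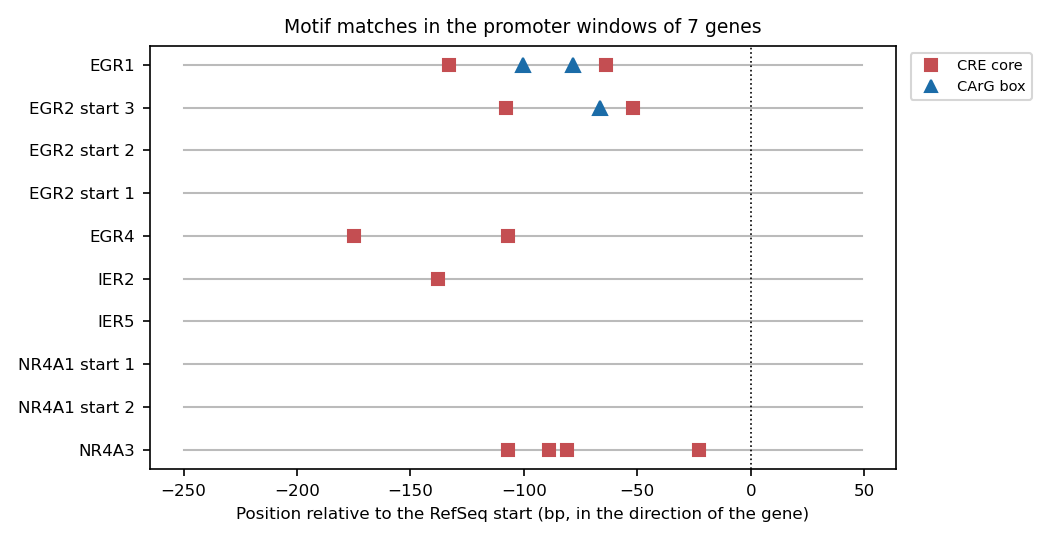
Positions of CRE cores (red squares) and CArG boxes (blue triangles) in the 10 promoter windows of 7 genes, against the distance from the RefSeq start in bp. Starts of 1 gene are numbered from the outermost; matches of EGR2 lie at its innermost start only, and NR4A1 and IER5 have none.

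Across the 9 listed genes the ATF1 peaks were long and rich in tags, with fold enrichments between 3.35 and 21.80. All 9 peaks were at least 2 kb long, against 28% of all peaks. Their median length was 3640 bp and the median of all peaks was 1551 bp. The 9 peaks held a median of 666 tags, 4.11 times the 162 tags of all peaks, and 7 of 9 were in the top 10% of the table by tags (interval 40.0 to 97.2%), against 9.98% of all peaks. By length 6 of 9 were in the top 10%, against 9.98%. By fold enrichment 2 of 9 were, NR4A2 and IER2, against 9.99%.

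Median fold enrichment was 8.12 for the 9 genes and 6.97 for all peaks. Of the 9, 3 reached 10-fold (NR4A2, IER2 and EGR4; interval 7.49 to 70.1%), against 23.9% of all peaks, a share within the counting interval of the 3. At least 5-fold enrichment was listed for 8 of the 9, against 77.5%, and at least 15-fold for 2, against 9.78%. Long peaks of the table in general had lower fold enrichment: the 4216 peaks of 2 kb or longer had a median of 5.73-fold and 349 tags. Per kb of peak, the 9 genes had a median of 183 tags, against 88.2 over all peaks and 124 over peaks of 2 kb or longer. By class, 3 of the 9 peaks were upstream (19.9% of all peaks were), 3 exonic (43.5%) and 3 intronic (33.9%).

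**Figure D2:**
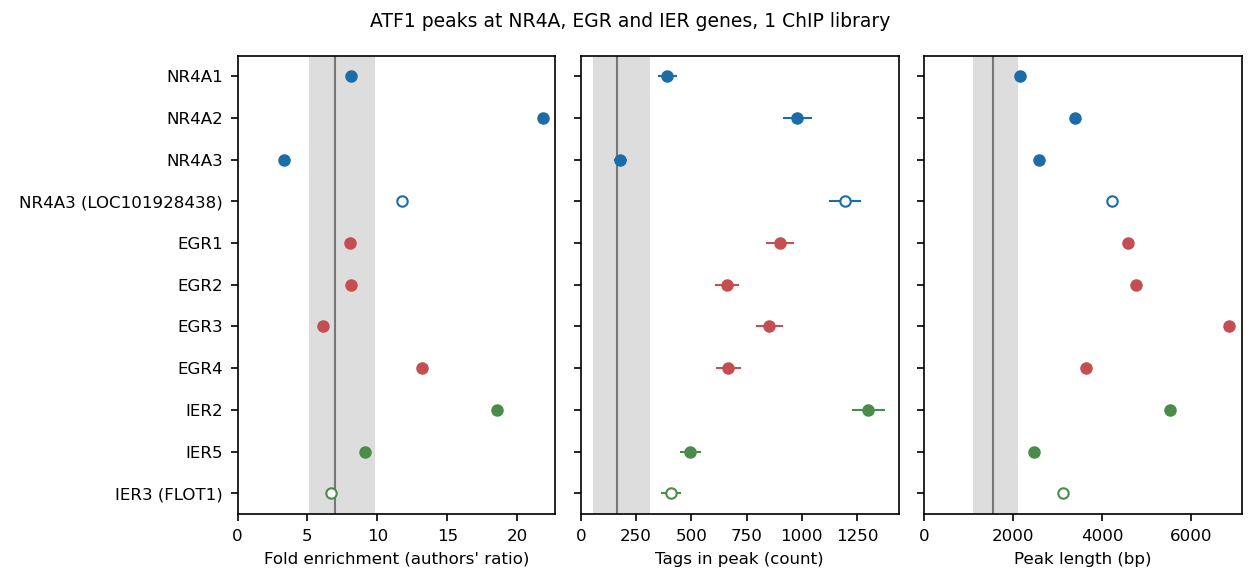
Fold enrichment, tags with 95% Poisson intervals, and peak length for each gene (blue NR4A, red EGR, green IER); the grey band and line are the quartiles and median of all 15064 peaks. Filled points are peaks listed under the gene's own name, and open points are peaks listed under the name in brackets; every filled point is above the median line in tags and length, and NR4A3 and EGR3 are below it in fold enrichment.

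Among the nuclear receptors, NR4A2 had the strongest peak of the 10 genes by fold enrichment. NR4A2 encodes NURR1, a receptor best known from dopamine neurons and also induced by cAMP. Its exonic peak on chromosome 2 (156331962 to 156335350) had 21.80-fold enrichment, above 95.9% of all peaks, and 978 tags (interval 918 to 1041). It also had the highest tag density of the 9, 289 tags per kb. The summit lay 55 bp outside the end of the gene in RefSeq (156332721). The peak table carries the gene further, to 156334683, which puts the same summit 1907 bp from that end.

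NR4A1, which encodes NUR77, an induced receptor with roles in apoptosis, had an intronic peak on chromosome 12 (52022415 to 52024561). It had 8.12-fold enrichment, above 63.1% of peaks, and 390 tags (interval 352 to 431). At 2147 bp it was the shortest of the 9. The summit was 1028 bp downstream of the outermost RefSeq start, which the peak contained, and 13855 bp upstream of the next start in the promoter table, which it did not contain. The sequence at this summit lay outside the searched windows. The outermost start lies inside the uncharacterised RNA gene LOC124902934, whose span also held the summit.

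The row named NR4A3 was not the strongest listed peak at that gene. NR4A3 encodes NOR1, a receptor closely related to the other two. Its listed peak was intronic (chromosome 9, 99823648 to 99826230), with 3.35-fold enrichment, close to the lowest value in the table and above 2.09% of peaks, and 178 tags (interval 153 to 206). The summit was 3045 bp downstream of the start, and the peak did not contain the start. Another peak, 457 bp away (99818979 to 99823190), contained it and had its summit 168 bp upstream of it. That peak was listed under LOC101928438, an RNA gene whose end was 1828 bp from the summit. It had 11.78-fold enrichment, above 83.5% of peaks, and 1194 tags (interval 1127 to 1264), 6.71 times the tags of the row named NR4A3. The 4 CRE cores of the NR4A3 window began within 143 bp of this summit.

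The EGR genes had long peaks, between 3640 and 6852 bp, and between 661 and 901 tags. Their fold enrichments were moderate except at EGR4. EGR1, the prototype of the family and a target of SRF, had an upstream peak on chromosome 5 (138463380 to 138467950). It had 901 tags (interval 843 to 962), above 98.9% of all peaks, and 8.03-fold enrichment, above 62.2%. The summit was 198 bp upstream of the start. From the summit, the nearer CRE core began 63 bp away and the CArG boxes 93 and 115 bp away, all on the side towards the start. The searched window reached only 250 bp before the start, so little of the other side was searched.

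EGR2, which is required for myelination by Schwann cells, had a peak classed as intronic on chromosome 10 (62814677 to 62819431). It had 661 tags (interval 612 to 713) and 8.09-fold enrichment. The summit was 2629 and 2237 bp downstream of the outer RefSeq starts, but 172 bp upstream of the innermost one. That innermost start was also the only one of the 3 with CRE cores or a CArG box in its window. The cores began 62 and 118 bp from the summit. The EGR1 summit (198 bp upstream) and the EGR2 summit measured from this start, the nearest of the 3, thus lay at similar distances. So did the EGR4 summit (180 bp upstream) and that of the peak over the NR4A3 start (168 bp upstream). The IER5 summit was nearer (89 bp upstream), and those of IER2 and of NR4A1 lay downstream of the start, for NR4A1 the outermost.

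EGR3, a regulator of muscle spindle and lymphocyte development, had the longest and weakest EGR peak. On chromosome 8 (22689355 to 22696206) it spanned 6852 bp, longer than 98.9% of peaks, with 853 tags (interval 797 to 912) and 6.13-fold enrichment, above 38.4% of peaks. Its summit was 1809 bp outside the gene in RefSeq, at 86.6% of the peak's length, and inside the RNA gene LOC105379321. The peak nevertheless covered 70.9% of EGR3.

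EGR4, the shortest gene of the family here, had the highest EGR enrichment, 13.20-fold, above 87.0% of all peaks. Its upstream peak on chromosome 2 (73290751 to 73294390) held 666 tags (interval 616 to 719) and covered the whole gene. The summit was 180 bp upstream of the RefSeq start and 27 bp from the gene's end in the peak table. A CRE core began 3 bp from the summit, the closest of the 11 cores found. The DNA fragments were 200 to 400 bp and there was 1 library, so the place of a summit is not known to a few bases. This holds for the distances from summit to core at the other genes too.

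The Poisson intervals of the tags of EGR1 and EGR3 overlapped, as did those of EGR2 and EGR4, whereas EGR1 and EGR2 did not. These intervals leave out the variation between libraries, so the order of the 4 genes is that of this library. By tags per kb the order was EGR1 (197), EGR4 (183), EGR2 (139) and EGR3 (124).

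Of the IER genes, IER2 had the most tags of the 9 listed genes. IER2 encodes a nuclear response protein. Its exonic peak on chromosome 19 (13149300 to 13154824) held 1300 tags (interval 1230 to 1373), above 99.7% of all peaks, with 18.53-fold enrichment, above 94.0%. The score was 3100, a value shared by 53 peaks. The peak covered 98.1% of IER2 and contained its start, but its summit was 2646 bp downstream of the start and 2786 bp from the CRE core in the window. The sequence at the summit lay outside the searched window, so a nearer core was not looked for. The peak also reached STX10, a syntaxin gene of vesicle traffic, which had no row of its own.

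IER5, linked to heat shock factor regulation, had an exonic peak on chromosome 1 (181087938 to 181090415), with 494 tags (interval 451 to 540) and 9.08-fold enrichment, above 70.9% of peaks. The summit was 89 bp upstream of the RefSeq start and 110 bp from the RNA gene LOC124904465. No CRE core was in its window.

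IER3, an apoptosis regulator also called IEX-1, had no row, but 1 listed peak covered all of it. This peak on chromosome 6 (30741994 to 30745113) was named for its neighbour FLOT1, a flotillin gene, and had 6.69-fold enrichment, above 45.1% of peaks, with 406 tags (interval 367 to 447). Its summit was 167 bp from the end of FLOT1 and 345 bp from that of IER3, outside both genes, and 109 bp from an end of the RNA gene IER3-AS1. Which of these genes the signal belongs to cannot be told apart from this table.

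**Figure D3:**
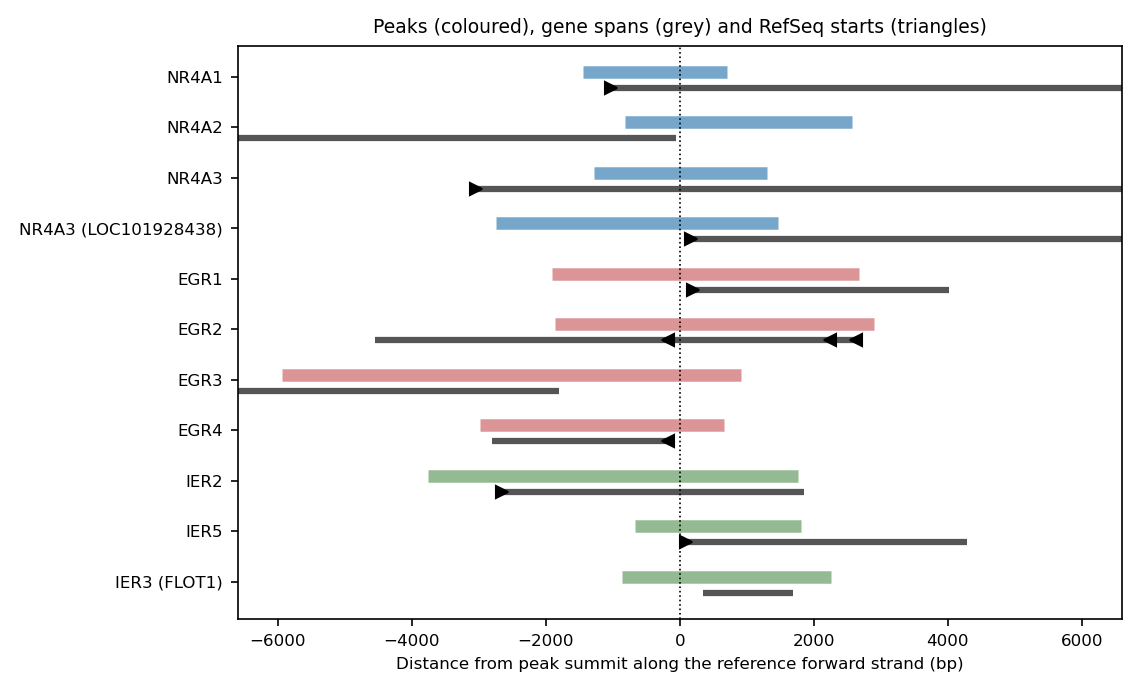
Extent of each ATF1 peak (coloured bar) and of the gene in RefSeq (grey bar, which runs off the plot for long genes) against the distance from the peak's summit in bp; triangles are RefSeq starts and point in the direction of the gene, where the promoter table holds one. The peak named NR4A3 lies inside the gene and away from its start, the peak named LOC101928438 lies over that start, and the summit of EGR2 lies at its innermost start.

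Counting any listed peak, all 10 genes had an end inside a peak (interval 69.2 to 100%), against 48.6% of 19974 protein-coding genes. Listed peaks covered 50% or more of the gene at 6 of the 10 (EGR1 to EGR4, IER2 and IER3), against 3.46% of all protein-coding genes. These 6 are short genes: among the 5658 protein-coding genes of 10 kb or less the share was 11.4%, and of the 10 genes 8 are that short. Of the 9 listed peaks, 4 (NR4A2, EGR1, EGR4 and IER5; interval 13.7 to 78.8%) had the summit within 1 kb of an end of the named gene, against 62.3% of all peaks, a share within the interval of the 4. The direction depended on the window: within 5000 bp all 9 counted, against 81.1%, and by any overlap with the 1 kb around an end 8 of 9 did, against 70.5%. Any summit inside a gene of 10 kb or less is within 5000 bp of an end, and a longer peak reaches an end more easily. These 2 wider counts therefore say little about where the summits lie.

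**Figure D4:**
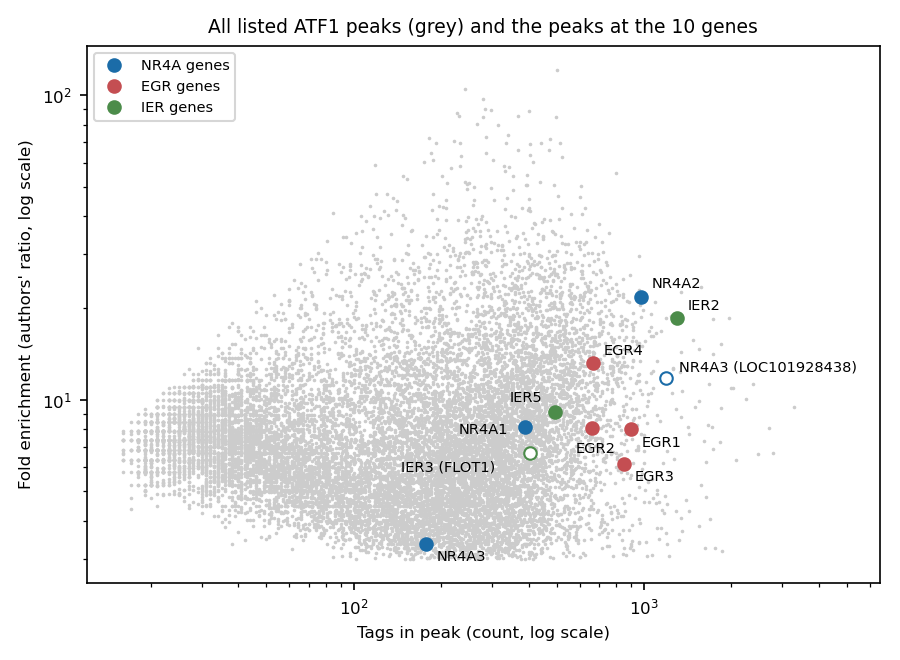
Fold enrichment against tags for all 15064 listed peaks (grey) and the peaks at the 10 genes (coloured by family, open where listed under the name in brackets), both axes logarithmic. NR4A2 and IER2 are high on both axes, EGR1, EGR2 and EGR3 are high in tags and moderate in enrichment, and the row named NR4A3 is near the lower edge.

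NAB1 and NAB2 are corepressors that bind EGR proteins and limit their activity, and NAB2 is itself induced by EGR factors. The NAB1 peak was upstream, at 9.24-fold with 423 tags (interval 384 to 465), and its summit was 23 bp from the gene as the table places it. NAB2 had a small exonic peak of 6.06-fold and 70 tags (interval 54.6 to 88.4), 2510 bp from the nearer end of the gene, and the peak contained neither end. Fold enrichment at NAB1 was thus above, and at NAB2 below, the 8.12-fold median of the 9 genes.

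Of 39 other immediate early and early response genes, 36 had a row (BTG1, SIK1 and ZFP36 had none under their current or older names). Over the 19974 protein-coding genes there were 12149 rows. The 36 are described next. Their medians were 8.74-fold, 518.5 tags and 2529 bp, beside 8.12-fold, 666 tags and 3640 bp for the 9 genes. In the top 10% of all peaks by tags were 21 of the 36, and by fold enrichment 4. Of the 36, 14 reached 10-fold (38.9%), against 23.9% of all peaks. The strongest were ZFP36L1, a factor of messenger RNA decay, at 16.35-fold, CREM at 16.05-fold, RGS2, a brake on G protein signalling, at 15.05-fold, and DUSP1, a MAP kinase phosphatase, at 14.99-fold. NR4A2 and IER2 were above all 36 in fold enrichment.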

How the data were processed

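The submitters' processing notes name CASAVA, Bowtie2 and bedtools, and the hg38 build. No source used here names the peak caller, its control or the gene annotation. In the deposited table, tags are raw counts per peak. The deposited fold is a ratio to a background that no header explains, and the deposited score is likewise unexplained. These values and the region classes come from the authors and were only described and ranked. Peak length and summit are in bp, per the file headers. Another 1 line without a position was left out. Peak names were matched to RefSeq by current symbol, then by an older name that 1 gene has (93.9% matched). The distance to a gene end was the smaller of those to the ends in the table and in RefSeq. No test was run. Functions were tested on simulated data. The 10 genes, the list of 39 and NAB1 and NAB2 were chosen with earlier results of these data known, and the named genes are all 10, NAB1, NAB2, the 4 strongest of the list, and neighbours within 5 kb of a peak, of which those that overlap a peak described are named. ADO and TUBB, farther away, were named after their values were seen. Motif searches other than the CRE were added after the data were seen. Python 3.11.15, numpy 2.4.6, pandas 2.3.3, scipy 1.17.1 and matplotlib 3.10.9 were used.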

Additional observations from a re-analysis of the deposited data

How the results depend on the processing

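Of 27 alternatives, 18 left the value within 1.5 times that reported, 6 moved it further and 3 turned its direction against the whole table. The ratio of the genes' median to that of all peaks fell for tags from 4.11 to 2.07 per kb of peak and to 1.91 against peaks of 2 kb or longer. For length it went from 2.35 to 1.41 against peaks of 2 kb or longer, and for score from 4.36 to 2.66 against gene-end peaks and 2.62 against peaks of 2 kb or longer. For fold enrichment it stayed between 1.09 and 1.42. The 4 of 9 genes with a summit within 1 kb of an end, below the 62.3% of all peaks, became 9 within 5000 bp and 8 when any overlap counted, above the 81.1% and 70.5% of all peaks. Short genes and long peaks favour these wider counts. The 3 genes at 10-fold (23.9% of all peaks) became 8 at 5-fold (77.5%) and 2 at 15-fold (9.78%). These settings were classed by the count of genes alone, which changes with the threshold over the whole table as well. The 5 of 7 genes with a CRE core, above the 28.4% of all genes, became 0 with the full CRE, below the 2.25%. That 2.25% is within the interval of the 0 of 7 (0 to 41.0%), so 7 genes are too few to show a lower share. For the core, the 36.0% of windows whose start lay in a listed peak is within the interval of the 5 of 7 (29.0 to 96.3%). Putting the peaks over the NR4A3 start and over IER3 in place of the listed rows raised the median to 8.60-fold and 759.5 tags. That setting, the peaks of 2 kb or longer, the ends of the table alone (3 genes) and the count of any peak holding a gene end (10 genes) were chosen after seeing the data. A search of whole peaks was not run, for want of a genome. No paired analysis was possible because each group has 1 library and no result comes from a test. Depth is unknown and each name has 1 peak, so a gene without a row, or a start in no listed peak, is not shown to lack binding.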

Other observations

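By fold enrichment, tags and length together, on a log2 scale, the most alike of the 9 listed peaks were those of NR4A1 and IER5 (distance 0.43) and those of EGR1 and EGR2 (0.45). The NR4A2 peak was nearest to that of IER2 (0.85), and the NR4A3 row was farthest from its nearest neighbour, NR4A1 (1.73). Within 20 kb of the peaks described, 6 of the 10 genes had another listed peak, and 32.2% of all listed peaks had another within that distance. Those with more enrichment than the peak beside them were the peak over the NR4A3 start, the ADO peak at 16.69-fold (8399 bp from that of EGR2) and the TUBB peak at 13.83-fold (19701 bp from that over IER3).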
